A study of Mus musculus with 16 samples.

Results

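The forkhead genes outside the FoxO group were 35 mouse genes named Foxa1 to Foxs1, taken by name as the forkhead family without Foxo1, Foxo3, Foxo4, Foxo6 and Foxm1. They made up 35 of the 21887 protein-coding gene records examined, and all 35 had a record. The study profiled 2 histone marks by ChIP-seq in muscle stem cells of skeletal muscle from C57BL/6 mice, comparing quiescent cells (QSC) with activated cells (ASC). For each mark and state there were 2 immunoprecipitated samples and 2 input samples, which gave 16 samples. No allele, transgene or agent is given for any group in the sources used here, nor how the cells were isolated or activated, nor whether replicates came from separate animals. H3K4me3 is a histone mark found at gene starts that are active or open to activation, and H3K27me3 is the mark laid down by the Polycomb complex PRC2 at silent developmental genes.

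Forkhead proteins share a winged-helix DNA-binding domain, and the subfamily letter groups those with the most similar domains. Many of them direct the formation of single organs or germ layers, and those genes are textbook targets of Polycomb outside their own tissue. A smaller group, among them the Foxk, Foxj2, Foxj3, Foxn2, Foxn3 and several Foxp genes, is expressed in many tissues, and Foxk1 was first described in muscle progenitors as myocyte nuclear factor.

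The lists used were 1 narrow and 1 broad peak list per state and mark, each standing for both replicates of a state. Differences between the states therefore have no replicate spread behind them, and none was tested. A gene was called for H3K4me3 where a narrow peak overlapped, by at least 1 bp, the windows of 1 kb either side of the 2 ends of its record. It was called for H3K27me3 where broad peaks covered at least 500 bp of such a window, and narrow H3K27me3 peaks were read with a 1 bp minimum. The fold given for a peak is the authors' own enrichment over background, a linear ratio that was used only to describe and rank peaks within a list.

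By these calls, with those of either state pooled, the family fell into 4 classes. H3K4me3 without H3K27me3 was found at 9 genes, against 41.5% of all protein-coding genes. These were Foxj2, Foxj3, Foxk1, Foxk2, Foxn2, Foxn3, Foxp1, Foxp2 and Foxp4. Both marks were called at 14 genes, against 15.0% of all genes, and 10 of the 14 had H3K4me3 in QSC. These were Foxa3, Foxb2, Foxc1, Foxc2, Foxd1, Foxd2, Foxd4, Foxe1, Foxf1, Foxf2, Foxh1, Foxj1, Foxl2 and Foxq1. H3K27me3 without H3K4me3 was found at 10 genes, against 23.3% of all genes. These were Foxa1, Foxa2, Foxb1, Foxd3, Foxe3, Foxi1, Foxi2, Foxl1, Foxn1 and Foxn4. Foxp3 and Foxs1 had neither call in either state, 2 of 35 against 20.2% of all protein-coding genes.

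H3K4me3 was called at 19 of the 35 genes in QSC and at 23 in ASC, against 53% and 55.7% of all genes, so the share of the family with H3K4me3 was near the background in QSC. Broad H3K27me3 calls numbered 24 in QSC and 23 in ASC, against 30.5% and 34.3% of all genes. Narrow H3K27me3 was called at 21 and 22 genes, against 12.2% and 18.6%. The 2 marks met at the same end of the record at 9 genes in QSC and 13 in ASC, against 5.34% and 10.3% of all genes. In these bulk samples a mark carried by fewer of the cells and a weaker mark in every cell cannot be told apart.

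**Figure D1:**
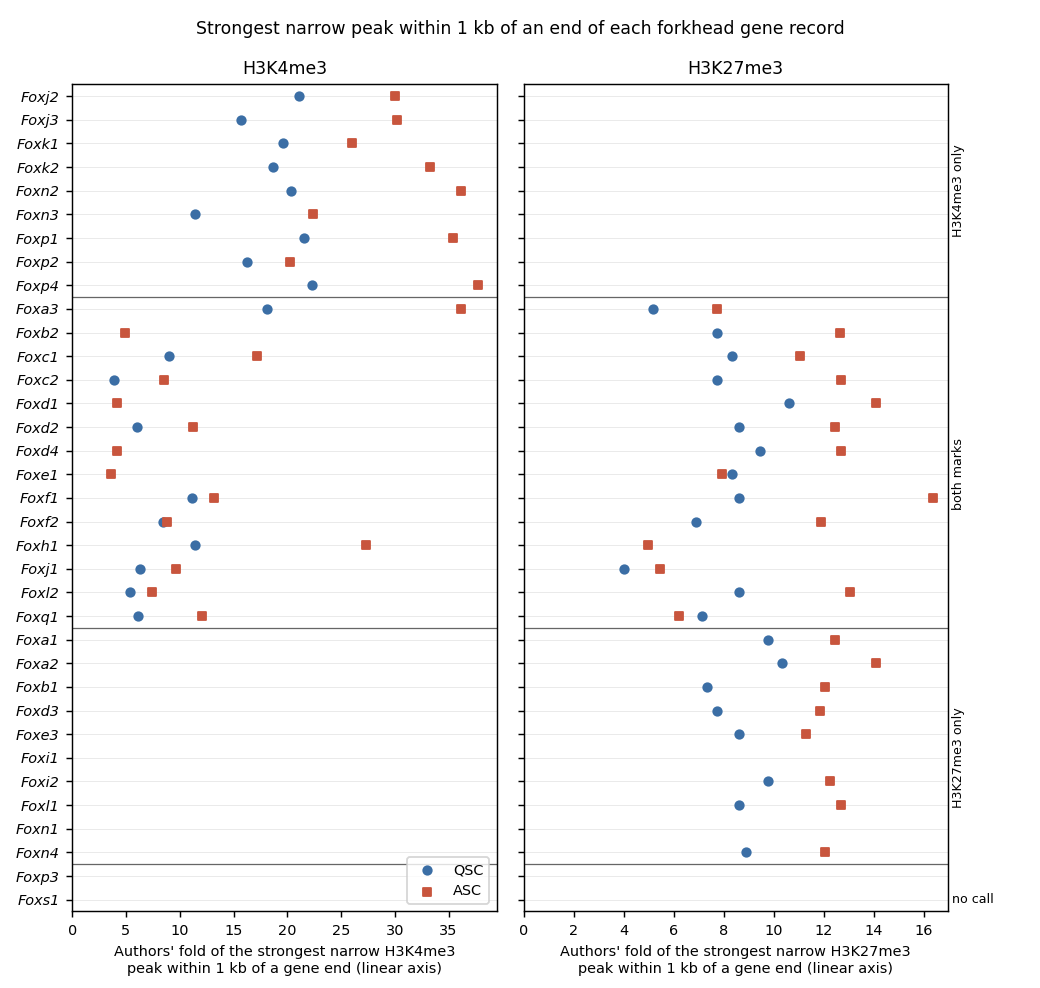
Authors' fold (linear axis) of the strongest narrow H3K4me3 peak (left) and narrow H3K27me3 peak (right) within 1 kb of an end of each of the 35 forkhead gene records, for the QSC list (blue circles) and the ASC list (red squares), with horizontal lines between the 4 classes. A missing point means no narrow peak in that list; the 9 genes with H3K4me3 only have folds of 11.4 to 22.3 in QSC and none in the right-hand panel.

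The 9 genes with H3K4me3 alone carried strong peaks at their ends. Their strongest peaks had folds of 11.4 to 22.3 in the QSC list and 20.2 to 37.8 in the ASC list, where the median peak of the whole list had 10.4 and 16.3. All 9 lay above the median of their list in both states. None of their H3K4me3 peaks near a gene end touched a broad or a narrow H3K27me3 peak in either state.

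Foxk1 and Foxk2 encode repressors that work with the Sin3 complex. Foxk1 had an H3K4me3 fold of 19.6 in QSC and 26.0 in ASC, over domains of 3405 and 3282 bp. A separate peak beyond the other end of the Foxk1 record lay at the neighbouring gene Ap5z1. Foxk2 had folds of 18.6 and 33.2 over domains of 2514 and 3586 bp. Foxk2 had the most CpG dinucleotides among the 23 forkhead starts with a sequence, 59 in 300 bases. That start is printed here as the example of a start with H3K4me3 and no H3K27me3 (RefSeq, GRCm38.p6, plus strand, chr11:121259737-121260036, from 250 bases before the start to 50 bases after it). H3K4me3 covered 156 of these 300 bases in QSC and 179 in ASC. The start base itself lay in the gap between 2 narrow peaks in both states. The capitals mark each CpG.
Foxk2: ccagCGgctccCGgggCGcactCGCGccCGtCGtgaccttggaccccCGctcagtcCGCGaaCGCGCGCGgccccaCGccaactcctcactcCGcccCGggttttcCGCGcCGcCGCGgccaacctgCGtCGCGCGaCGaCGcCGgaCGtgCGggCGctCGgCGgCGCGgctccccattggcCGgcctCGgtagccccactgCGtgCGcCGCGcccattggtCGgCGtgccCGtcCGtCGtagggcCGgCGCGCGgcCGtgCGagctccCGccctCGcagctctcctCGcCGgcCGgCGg

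Foxj2 and Foxj3 encode activators, and Foxj3 has been tied to the muscle factor Mef2c. Foxj2 had folds of 21.0 in QSC and 30.0 in ASC, over domains of 3026 and 3000 bp. Foxj3 had folds of 15.7 and 30.2 over 2553 and 3256 bp. The Foxj3 peak also lay within 1 kb of an end of the neighbouring record Frg2f1. Foxn2 had folds of 20.3 and 36.1. Foxn3, a repressor known from the DNA damage checkpoint, had the lowest QSC fold of the 9, 11.4, and a fold of 22.4 in ASC.

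The Foxp genes encode repressors that pair through a leucine zipper, and 3 of the 4 were in this class. Foxp4 had the highest H3K4me3 folds of the family, 22.3 in QSC, above 97.3% of the peaks of that list, and 37.8 in ASC, above 96.6%. Foxp1 had 21.5 in QSC and 35.4 in ASC, over domains of 3048 and 4756 bp. Foxp2 had 16.2 and 20.2, and its domain was shorter in ASC, at 2587 bp against 2803 bp. Foxp3, the regulator of regulatory T cells, had no H3K4me3 peak within 1 kb in either list.

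Foxp1 (chr6:98925342-99522746, a record of 597405 bp) carried marks inside the gene as well as at its end. The RefSeq table gave 3 starts for it on the minus strand. The upstream start lies 1753 bp inside the record and was covered in full by H3K4me3 in both states. The downstream start, which lies 102956 bp from the other end of the record, was also covered in full by H3K4me3 in both states. Its peak had a fold of 12.6 over 2105 bp in QSC and of 25.6 over 4325 bp in ASC. The middle start had no H3K4me3 in either state and 5 CpG dinucleotides against 44 at the downstream start. All 3 are printed to show this contrast (RefSeq, GRCm38.p6, minus strand, chr6:99520944-99521243, chr6:99266466-99266765 and chr6:99028249-99028548), with CpG in capitals.
Foxp1 upstream start: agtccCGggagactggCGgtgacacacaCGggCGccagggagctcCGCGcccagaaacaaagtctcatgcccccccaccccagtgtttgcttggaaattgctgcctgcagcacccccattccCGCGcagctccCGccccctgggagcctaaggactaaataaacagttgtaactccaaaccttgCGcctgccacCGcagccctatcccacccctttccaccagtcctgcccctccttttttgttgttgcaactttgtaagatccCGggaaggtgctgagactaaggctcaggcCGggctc
Foxp1 middle start: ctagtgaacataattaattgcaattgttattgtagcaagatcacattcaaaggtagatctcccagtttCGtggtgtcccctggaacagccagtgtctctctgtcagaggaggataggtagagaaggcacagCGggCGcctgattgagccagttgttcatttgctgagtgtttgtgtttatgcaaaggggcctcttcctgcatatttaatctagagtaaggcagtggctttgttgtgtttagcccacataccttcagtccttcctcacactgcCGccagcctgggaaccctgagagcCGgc
Foxp1 downstream start: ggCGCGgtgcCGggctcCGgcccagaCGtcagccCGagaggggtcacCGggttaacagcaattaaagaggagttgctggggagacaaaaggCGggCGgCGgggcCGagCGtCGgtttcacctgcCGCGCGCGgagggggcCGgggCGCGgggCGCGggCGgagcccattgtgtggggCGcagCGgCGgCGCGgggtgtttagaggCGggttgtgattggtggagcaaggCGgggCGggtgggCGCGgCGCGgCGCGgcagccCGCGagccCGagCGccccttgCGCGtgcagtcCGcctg

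The middle start lay in an H3K27me3 block that was present in the QSC lists and largely missing from the ASC lists. In QSC, 8 narrow peaks covered 8974 bp of the Foxp1 record, and 1 broad peak of 30936 bp with a fold of 2.66 spanned the middle start. The narrow folds ran from 3.44 to 6.03. In ASC no narrow H3K27me3 peak lay in the record, and broad peaks covered 7520 bp against 62851 bp in QSC. A narrow cover of at least 5 kb in QSC with 0 bp in ASC was found at 18 of 21887 records, or 0.0822%, and Foxp1 was the only forkhead gene among them. This rule was written after the Foxp1 values had been seen. Records shorter than 5 kb cannot meet it, and the share over all records was not matched for record length. The opposite pattern, at least 5 kb in ASC and 0 bp in QSC, was found at 95 records, none of them a forkhead gene in the set.

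**Figure D2:**
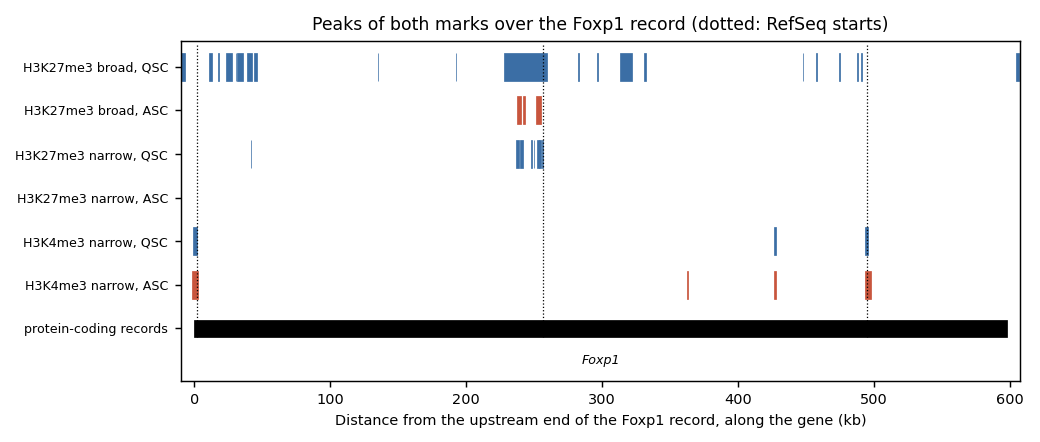
Peaks over the Foxp1 record, drawn as bars by distance in kb from the upstream end of the record, with 1 row per mark, list and state (QSC blue, ASC red), the record in black and the 3 RefSeq starts as dotted lines. The row of narrow H3K27me3 in ASC is empty, while QSC has 8 narrow peaks, 7 of them beside the middle start.

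H3K4me3 peaks away from the ends were also seen in other long members of this class. Foxn3 (record of 373587 bp) had 2 such peaks in QSC and 4 in ASC, the strongest with folds of 17.2 and 30.9. Foxp2 (record of 540629 bp) had 1 in QSC with a fold of 6.77 and 3 in ASC, the strongest with a fold of 17.2 over 5248 bp. Foxp4 had 1 in each state, with folds of 3.63 and 6.32. Foxk1 had 0 in QSC and 2 in ASC, with folds of 3.18 and 3.43. Foxj2 had 0 and 1, the latter with a fold of 4.15. Exon and intron positions of these peaks were not analysed here.

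The 14 genes with both marks included factors of mesoderm and mesenchyme. Foxc1 and Foxc2 act in vessel and lymphatic development, and Foxf1 and Foxf2 in the mesoderm around gut and lung. Foxd2 acts in kidney mesenchyme, Foxl2 in the ovary and Foxq1 in hair and epithelia. Their H3K4me3 folds had lower medians than those of the first class, 7.40 at 10 genes in QSC and 9.27 at 14 in ASC against 19.6 and 30.2. The ASC median includes 4 genes called in ASC only, with folds of 3.61 to 4.88, so the gene sets of the states differ.

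Foxc1 had H3K4me3 folds of 8.95 in QSC and 17.2 in ASC, the latter the highest among the genes whose H3K4me3 lay in full under broad H3K27me3. The Foxc1 H3K4me3 domain measured 3057 and 4854 bp, in ASC the longest of the family within 1 kb of a record end. Foxc2 had a fold of 3.87 over 740 bp in QSC, above 4.35% of the list, and of 8.49 over 2486 bp in ASC, above 27.2%. Foxf1 had folds of 11.1 and 13.2, at the end of the record that also lies within 1 kb of the noncoding gene Fendrr. Its rank was lower in ASC, above 41.7% of the list, than in QSC, above 55.2%. Foxf2 had 8.47 and 8.85 near its start, and a further peak inside its record with folds of 6.53 and 5.78. The peaks near the Foxf2 start lay above 37.6% of the QSC list and 28.4% of the ASC list.

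Foxd2 had H3K4me3 folds of 6.05 over 2022 bp in QSC and 11.2 over 2899 bp in ASC, beside its antisense neighbour Foxd2os. Foxl2 had 5.32 over 973 bp and 7.41 over 1492 bp, beside Foxl2os. Foxq1 had 6.09 over 1963 bp and 12.1 over 2916 bp. In QSC these 7 genes, Foxc1, Foxc2, Foxd2, Foxf1, Foxf2, Foxl2 and Foxq1, had their H3K4me3 peaks covered in full by broad H3K27me3. The narrow H3K27me3 lists covered less of the same peaks, from 42.5% at Foxd2 to 100% at Foxq1. At Foxf1 the narrow cover of the H3K4me3 peak was 47.9% in QSC and 84.5% in ASC, and at Foxd2 it was 42.5% and 52.3%.

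In 3 genes with both calls, the H3K4me3 lay beside H3K27me3 or at a neighbouring gene. Foxa3, a liver and endoderm factor, had its H3K4me3 folds of 18.1 and 36.1 at the end of the neighbouring gene Sympk. Foxh1, a partner of Smad proteins in Nodal signalling, had folds of 11.4 and 27.3 at Ppp1r16a. Foxj1, the regulator of motile cilia, had folds of 6.33 and 9.68 beside Rnf157. None of the H3K4me3 peaks of Foxa3, Foxh1 and Foxj1 touched H3K27me3 in QSC. In ASC the Foxj1 peak was covered in full by a broad peak and to 11.5% by narrow peaks, the Foxa3 peaks to 10.1% by a broad peak, and the Foxh1 peak to 0%.

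H3K4me3 was called in ASC only at 4 genes, Foxb2, Foxd1, Foxd4 and Foxe1, against 3.54% of all genes, and in QSC only at 0 genes, against 0.777%. Foxb2 and Foxd4 act in the nervous system, Foxd1 in kidney stroma and Foxe1 in the thyroid. Foxb2 had a fold of 4.88 over 1518 bp, above 10.3% of the ASC list. Foxd1 and Foxd4 each had a fold of 4.15, over 756 and 801 bp, and Foxe1 had 3.61 over 263 bp, above 1.63% of the list. All 4 peaks lay in full under narrow H3K27me3 in ASC. These were weak peaks in a list that held 15869 peaks against 14354 in QSC.

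The ASC-only calls depended on how the lists were matched. With the ASC list cut to its strongest peaks, equal in number to the QSC list, Foxb2 was the only one of the 4 left. With the ASC list cut to the covered bases of the QSC list, 0 genes were called in ASC only and 7 in QSC only. Both cuts took weak peaks from the ASC list alone, and the QSC list stayed whole. Shares of all genes were not computed for either cut, so these counts have no background beside them. The broad H3K4me3 lists, which hold many peaks of low fold, called 32 of 35 genes in QSC and 29 in ASC, against 71.1% and 62.4% of all genes. All 4 genes were called in both broad lists, with folds in the QSC list of 1.97 at Foxb2, 1.74 at Foxd4 and 1.88 at Foxe1 and a higher one at Foxd1. These QSC calls were weak. The highest −log10 q was 0.384 at Foxb2, 0.0827 at Foxd4, 0.294 at Foxe1 and 0.629 at Foxd1, where the whole list had a median of 0.

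The start of Foxd1 is printed as an example with H3K4me3 in ASC only, over 258 of its 300 bases, and H3K27me3 over all 300 in both states (RefSeq, GRCm38.p6, plus strand, chr13:98353995-98354294, CpG in capitals). It holds 15 CpG dinucleotides.
Foxd1: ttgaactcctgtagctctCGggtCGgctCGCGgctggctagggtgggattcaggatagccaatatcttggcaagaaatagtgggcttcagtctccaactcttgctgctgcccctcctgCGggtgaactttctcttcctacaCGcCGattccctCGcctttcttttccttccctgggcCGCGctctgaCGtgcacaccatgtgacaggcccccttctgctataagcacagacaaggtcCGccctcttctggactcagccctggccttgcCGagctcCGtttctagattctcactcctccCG

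With windows of 5 kb, H3K4me3 calls numbered 20 in QSC and 26 in ASC, against 58.1% and 60.7% of all genes. The 3 genes added were Foxa1, Foxb1 and Foxp3. The Foxa1 peaks, with folds of 5.24 and 3.61 in ASC, lay either side of the RefSeq start of Foxa1, which is 1918 bp inside its record, and neither covered the start base. Both also lay within 1 kb of an end of the neighbouring record Ttc6. The Foxb1 peak in ASC had a fold of 3.79 over 730 bp, inside the record. The Foxp3 peak was present in both lists, with folds of 9.44 and 14.3, and lay at the neighbouring records Flicr and Ppp1r3f. Broad H3K27me3 was called within 5 kb at 30 genes in each state, against 58.3% (QSC) and 58.9% (ASC) of all genes. Narrow H3K27me3 was called within 5 kb at 23 and 24 genes, against 25.2% and 31.9%.

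Among the 19 genes with H3K4me3 in both states, the domain was longer in ASC at 16 and shorter at 3, Foxj2, Foxk1 and Foxp2. The median log2 ratio of ASC over QSC length was 0.41, against 0.55 over the 11425 genes called in both states. All 10 genes with both marks that had H3K4me3 in both states had the longer domain in ASC, with a median of 0.55 and a highest value of 1.75 at Foxc2. Of the 9 genes with H3K4me3 alone, 6 had the longer domain in ASC, with a median of 0.40 and a highest value of 0.64 at Foxp1. Longer ASC domains were thus the rule over all genes too, at 10367 of 11425.

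**Figure D3:**
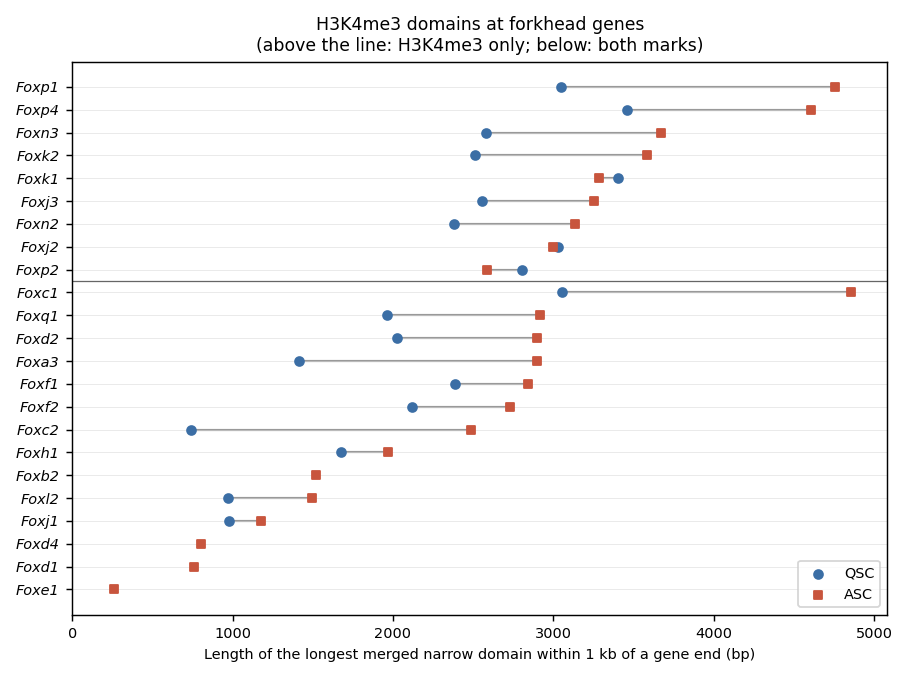
Length in bp of the longest merged narrow H3K4me3 domain within 1 kb of a gene end, in QSC (blue circles) and ASC (red squares), for the 23 genes called in either state, with a line joining the 2 states. The points of Foxb2, Foxd1, Foxd4 and Foxe1 have no QSC partner, and Foxc2 has the largest ratio, from 740 to 2486 bp.

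The 10 genes with H3K27me3 alone direct the formation of other tissues. Foxa1 and Foxa2 are pioneer factors of endoderm and liver, Foxb1 acts in the brain, Foxd3 in neural crest, Foxe3 in the lens, Foxi1 in the inner ear and kidney, Foxl1 in gut mesenchyme, Foxn1 in thymic epithelium and Foxn4 in the retina. At 8 of them the narrow lists of both states gave an H3K27me3 call, with folds of 7.35 to 10.3 in QSC and 11.3 to 14.1 in ASC. Foxi1 and Foxn1 had no narrow call and rested on broad peaks alone. At Foxi1 the call came from the record end away from its RefSeq start. The broad peaks there had a −log10 q of 0.755 in QSC and 0.404 in ASC. The Foxi1 start itself had no broad call, and 0 of its 300 bases lay under H3K27me3 in either state.

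The strongest narrow H3K27me3 peaks of the family stood high within their lists. The strongest peak of a called gene lay above a median of 97.9% of the QSC list and 99.5% of the ASC list. This sets the best of a gene's peaks against single peaks, which favours a high rank, and other called genes were not ranked so. Weaker peaks at the same genes could rank low, as at Foxf2 in QSC with 1 above 17.3% of the list. Foxf1 had a fold of 16.4 in ASC, which no other peak among 58454 exceeded and 1 other equalled. Foxd1 and Foxa2 followed with 14.1 each, and Foxl2 had 13.0. In QSC the highest were Foxd1 with 10.6 and Foxa2 with 10.3. Foxj1 had the lowest fold in QSC, 4.02, above 30.1% of the list, and Foxh1 the lowest in ASC, 4.98.

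The broad H3K27me3 peaks carried weak q-values in QSC. Only Foxc2 and Foxl1, which share 1 broad peak, stayed called in QSC when broad peaks needed a −log10 q of at least 5, while 17 of 23 genes stayed called in ASC. With that threshold on the broad H3K27me3 list alone, 1 gene, Foxc2, kept both marks at one end in QSC and 10 genes did in ASC. With it on the H3K4me3 list too, 0 genes did in QSC. Shares of all genes were not computed at this threshold. The median −log10 q of the whole broad list was 0.420 in QSC and 0.378 in ASC.

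At 17 of the 35 genes the windows of 5 kb around both record ends lay in full under broad H3K27me3 in both states, against 1.86% of all genes. These were Foxa1, Foxa2, Foxb1, Foxb2, Foxc1, Foxc2, Foxd1, Foxd2, Foxd3, Foxd4, Foxe1, Foxe3, Foxf1, Foxi2, Foxl1, Foxl2 and Foxq1. Their records are short, so the 2 windows overlap and held from 11515 bp at Foxb2 to 17402 bp at Foxa1. At long records the windows are separate and hold 20002 bp, and the share over all genes was not matched for record length. The narrow lists left more room to differ. Of the 21 genes with narrow calls in both states, 19 had more narrow cover within 5 kb in ASC and 2 had less, Foxa1 and Foxc1. More cover in ASC was also found at 3928 of the 4866 protein-coding genes with narrow cover in both states. The whole narrow list covered 88.4 Mb in ASC against 53.8 Mb in QSC. In percent of the windows the largest gain among the 21 genes was at Foxi2, from 59.7% to 90.3%, followed by Foxc2, from 72.9% to 94.8%. The median log2 ratio over the 22 genes with narrow cover in both states was 0.11, against 0.56 over 4866 genes. At the 21 genes above, narrow cover in QSC already had a median of 88.4% of the windows. This limits how far their ratio can rise, so the 2 medians do not compare like with like.

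Only 1 gene changed its narrow H3K27me3 call. Foxh1 had 0 bp in QSC and a peak of fold 4.98 in ASC, and such ASC-only calls were made at 7.65% of all genes. Foxn1 was the 1 gene with a broad call in QSC only, against 3.68% of all genes. Its QSC domain was 10412 bp long, and the broad peak at its start had a fold of 2.04 and a −log10 q of 0.627. The Foxn1 start is shown as an end with weak H3K27me3 in one list and few CpG dinucleotides, 8 in 300 bases (RefSeq, GRCm38.p6, minus strand, chr11:78386559-78386858, CpG in capitals).
Foxn1: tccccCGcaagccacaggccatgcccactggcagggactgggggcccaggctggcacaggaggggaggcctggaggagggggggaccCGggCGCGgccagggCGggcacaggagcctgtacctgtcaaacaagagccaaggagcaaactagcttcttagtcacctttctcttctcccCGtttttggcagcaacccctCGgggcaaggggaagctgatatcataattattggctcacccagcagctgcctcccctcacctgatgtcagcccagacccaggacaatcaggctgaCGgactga

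Broad H3K27me3 peaks were merged into domains across gaps of up to 3 kb. The domains of called forkhead genes had a median length of 86757 bp (QSC) and 85977 bp (ASC), against 26101.5 and 26726.5 bp over all called genes. Foxb1 (chr9:69757710-69760940) lay in the longest domain, with 301849 bp in QSC. In ASC it had 484058 bp, and 2 of 53083 ASC domains were longer. No other protein-coding record lay in the Foxb1 domain in either state. The Foxd1 domain, also without another protein-coding record, had 274544 bp (QSC) and 283532 bp (ASC). Foxl2 had 67819 bp and 156441 bp.

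Some of these differences came with the merging. The Foxf1 domain had 123370 bp (QSC) and 303071 bp (ASC), but its longest single broad peak had 53338 and 54315 bp. At Foxa2 the merged domain was shorter in ASC, with 178238 bp against 108265 bp, while the single peak had 103536 bp in QSC and 105617 bp in ASC. At Foxn4 the merged domain had 93627 bp (QSC) and 43898 bp (ASC), and the single peak had 24315 and 25606 bp. Of the 21 genes with narrow calls in both states, the merged domain was longer in ASC at 10 and shorter at 11, while the longest single peak was longer at 15 and shorter at 6. The direction was the same both ways at 14 of the 21 and differed at 7. At Foxc2 and Foxl1 the shared single peak, of 266775 bp (QSC) and 78010 bp (ASC), was also shorter in ASC, and at Foxc1 the single peak, of 45346 and 101537 bp, was also longer.

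**Figure D4:**
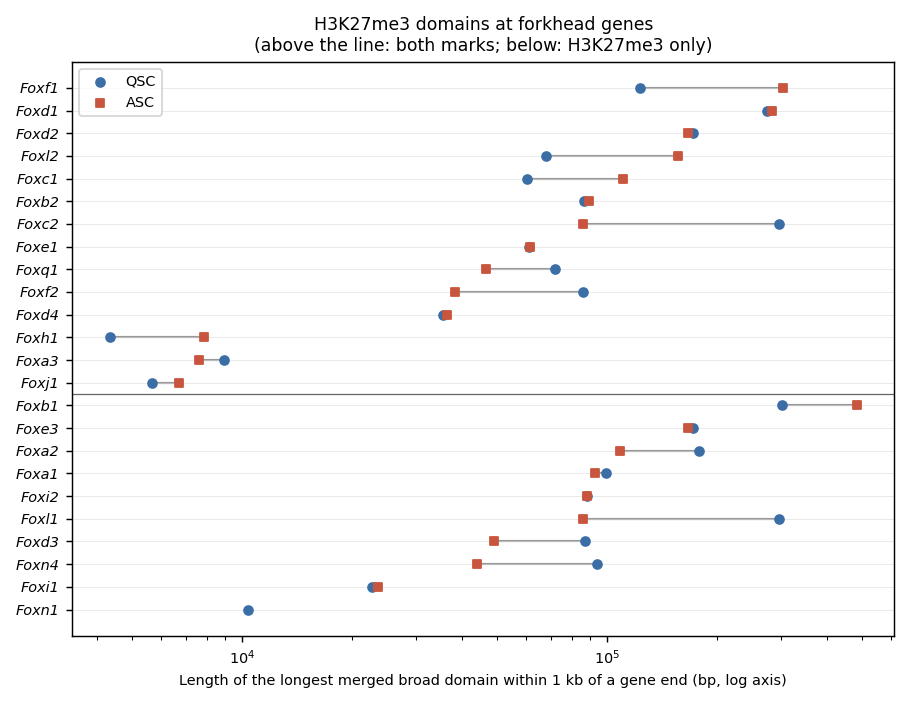
Length in bp (log axis) of the longest merged broad H3K27me3 domain within 1 kb of a gene end, in QSC (blue circles) and ASC (red squares), for the 24 genes with a broad call in either state. Points lie both left and right of their partner; Foxb1 is longest in both states, and Foxc2 and Foxl1 share a domain that is 295434 bp in QSC and 85977 bp in ASC.

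Several of these genes are neighbours. Foxf1 (chr8:121084386-121088154), Foxc2 (chr8:121116171-121118895) and Foxl1 (chr8:121127685-121130644) follow each other at distances of 28016 and 8789 bp. Foxc2 and Foxl1 lay in 1 broad domain in both states. H3K4me3 was called at Foxc2 but not at Foxl1, although both records lay in the same domain. Between Foxf1 and Foxc2 the H3K27me3 domain was interrupted, by 11568 bp (QSC) and 11972 bp (ASC). The break held 1 narrow H3K4me3 peak, at the gene Mthfsd, with a fold of 12.1 in QSC and 24.7 in ASC.

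Foxq1, Foxf2 and Foxc1 lie on chromosome 13 at distances of 64839 and 175239 bp. Each lay in its own domain in both states, with H3K4me3 at all 3 genes. The break between the Foxq1 and Foxf2 domains was 3855 bp wide in the QSC list and 3700 bp wide in the ASC list, and held 0 narrow H3K4me3 peaks. Both widths are little above the merge gap of 3 kb, so this separation rests on that setting. Broad H3K27me3 covered 92.8% (QSC) and 94.3% (ASC) of the bases between the Foxq1 and Foxf2 records. Between Foxf2 and Foxc1 it covered 75.8% and 88.9%. The merged Foxf2 domain had 85959 bp (QSC) and 38273 bp (ASC), and its longest single peak had 37621 and 34739 bp. The merged Foxc1 domain measured 60494 and 110769 bp.

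**Figure D5:**
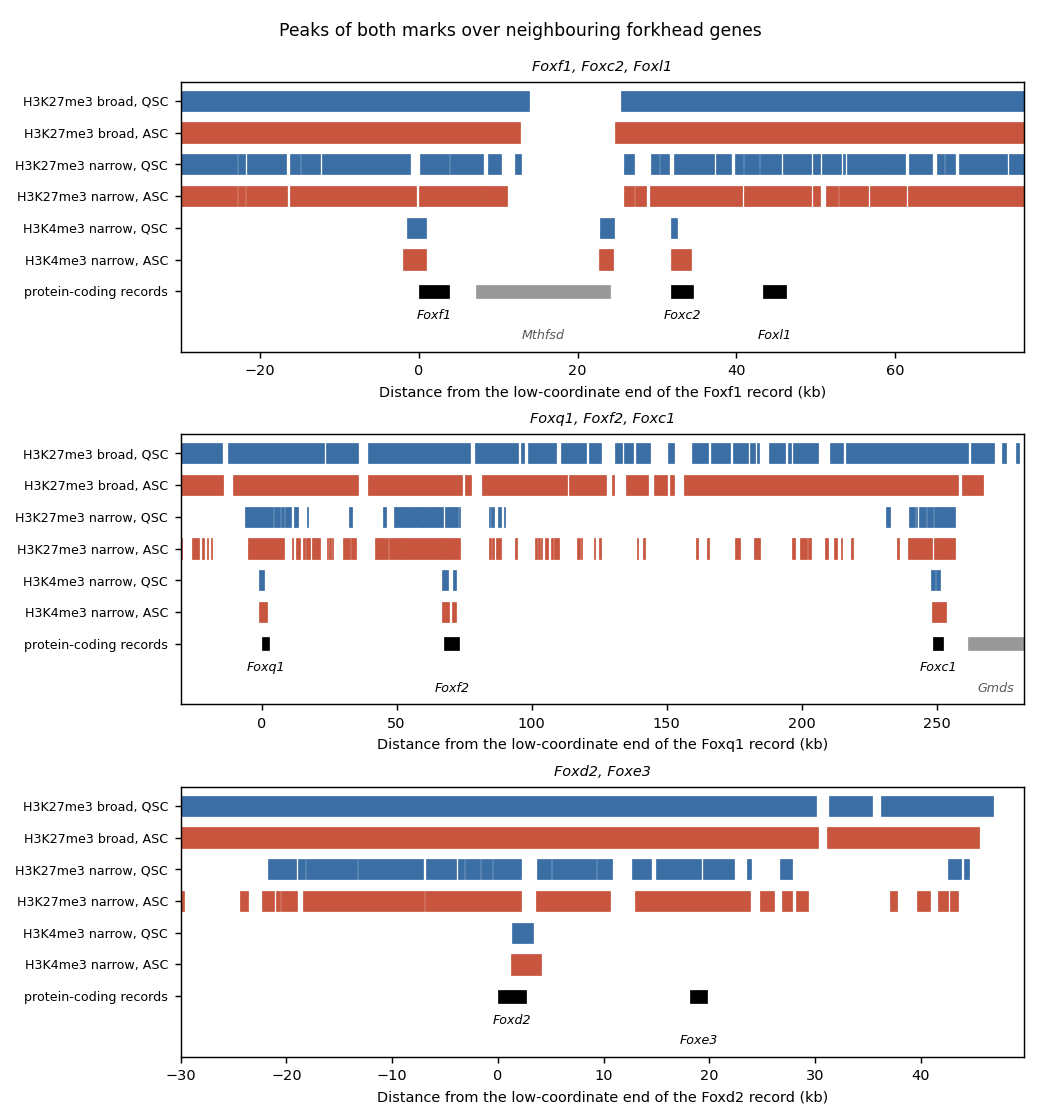
Broad and narrow H3K27me3 and narrow H3K4me3 peaks (QSC blue, ASC red) over 3 groups of neighbouring forkhead genes, by distance in kb from the low-coordinate end of the first record, with forkhead records in black and other protein-coding records in grey. H3K4me3 bars stand at Foxf1, Foxc2, Foxq1, Foxf2, Foxc1 and Foxd2 but not at Foxl1 or Foxe3, and the gap in H3K27me3 between Foxf1 and Foxc2 lies over Mthfsd.

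Foxd2 (chr4:114906280-114908898) and Foxe3 (chr4:114924443-114926067) lie 15544 bp apart and shared 1 domain, of 171958 bp (QSC) and 167005 bp (ASC). The longest single peak in it had 64889 and 142627 bp. All bases between the records were covered by broad H3K27me3 in both states. Foxd2 had H3K4me3 in both states and Foxe3 had no narrow H3K4me3 peak in either. Their starts are printed as a pair within 1 domain (RefSeq, GRCm38.p6, both on the minus strand, chr4:114908849-114909148 and chr4:114926018-114926317, CpG in capitals), with 26 CpG dinucleotides at Foxd2 and 10 at Foxe3.
Foxd2: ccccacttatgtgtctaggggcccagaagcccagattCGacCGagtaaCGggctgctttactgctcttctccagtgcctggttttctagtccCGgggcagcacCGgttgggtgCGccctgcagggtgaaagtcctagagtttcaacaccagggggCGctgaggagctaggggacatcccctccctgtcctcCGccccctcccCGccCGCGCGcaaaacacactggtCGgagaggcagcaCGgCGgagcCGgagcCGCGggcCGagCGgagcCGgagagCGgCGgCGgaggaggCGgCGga
Foxe3: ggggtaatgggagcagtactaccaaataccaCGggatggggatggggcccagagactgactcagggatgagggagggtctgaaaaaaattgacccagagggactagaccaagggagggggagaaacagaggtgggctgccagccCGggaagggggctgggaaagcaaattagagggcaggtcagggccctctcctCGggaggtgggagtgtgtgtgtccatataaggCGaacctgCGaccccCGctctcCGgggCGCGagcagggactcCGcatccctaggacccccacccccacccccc

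Foxp3 and Foxs1 had no call of either mark within 1 kb. Foxp3 (chrX:7579676-7595243) had 0 bp of broad or narrow H3K27me3 within 5 kb in both states. Foxp3 was the only gene with no call that had matched starts. Its start at the low end of the record, with 6 CpG dinucleotides and 40.7% G and C, is printed here (RefSeq, GRCm38.p6, plus strand, chrX:7579426-7579725, CpG in capitals). A further Foxp3 start, 807 bp inside the record, is not printed. Foxs1, known from perivascular cells, had a broad H3K27me3 peak of 70694 bp with a fold of 3.29 in ASC that began 2925 bp from the low end of its record. In QSC the peak near Foxs1 was 2918 bp long with a fold of 2.22. Within 5 kb of Foxs1, narrow H3K27me3 covered 0 bp in QSC and 2526 bp in ASC.
Foxp3: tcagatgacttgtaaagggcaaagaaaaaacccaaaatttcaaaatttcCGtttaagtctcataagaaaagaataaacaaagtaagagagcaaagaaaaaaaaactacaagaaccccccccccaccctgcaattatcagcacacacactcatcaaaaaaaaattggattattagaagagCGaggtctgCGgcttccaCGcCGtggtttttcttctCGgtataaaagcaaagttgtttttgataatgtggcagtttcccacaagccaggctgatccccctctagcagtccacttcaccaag

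Promoter sequences were matched for 23 of the 35 genes, using for each gene the start nearest to an end of its record. The ratio of observed to expected CpG had a median of 0.667 in these 23, against 0.577 over 17492 genes. Within the family it was 0.872 at 6 genes with H3K4me3 only, 0.688 at 8 genes with both marks and 0.447 at 8 genes with H3K27me3 only. Over all genes the same classes had medians of 0.800, 0.714 and 0.259, and genes with no call had 0.162. For Foxa1, Foxn3 and Foxp1 the nearest start lay over 1 kb from both record ends, so their class and their sequence come from different places. The Foxn3 start lies 113593 bp inside the record and had no H3K4me3 in its 300 bases in either state. Without these 3 genes the family medians were 0.971 at 4 genes, 0.688 at 8 and 0.345 at 7. Foxi2 had the fewest CpG dinucleotides of the matched forkhead starts, 5, and Foxk2 the most, 59. Among the genes with H3K27me3 only, the values ran from 0.198 at Foxi2 to 0.929 at Foxa1. Foxi1, counted in this class, had no H3K27me3 in the 300 bases of its start in either state. The 300 bases at the Foxa1 start held 26 CpG dinucleotides, and 65 of the bases lay under H3K4me3 in ASC.

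The letters TGTTTAC and TGTTTGC, the core bound by many forkhead proteins, were searched on both strands of these 300 bases. At least 1 of them stood at 3 of 23 forkhead starts, Foxa1, Foxj3 and Foxp1, or 13.0%, against 7.34% of 17492 starts. TGTTTAC stood at Foxa1 and TGTTTGC at Foxj3 and Foxp1, and the 2 motifs do not contain each other.

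Other families and lists gave a scale for these counts. The 5 remaining forkhead genes, Foxo1, Foxo3, Foxo4, Foxo6 and Foxm1, had H3K4me3 in both states, and 1 of them, Foxo6, had broad H3K27me3. Of 19 Sox genes, 11 had H3K4me3 in QSC and 12 in ASC, and 11 and 13 had broad H3K27me3. Of 17 T-box genes, 8 had H3K4me3 in each state, and 14 and 15 had broad H3K27me3. Of 14 genes of Hedgehog signalling, which acts upstream of Foxf1, Foxf2 and Foxl1 in mesenchyme, 12 had H3K4me3 in each state and 5 in QSC and 8 in ASC had broad H3K27me3. All 15 listed partners of Foxk and Foxp proteins in repression, among them Sin3a, Hdac1 and Bap1, had H3K4me3 in both states and 0 had H3K27me3.

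The labelled cell type was checked against marker genes. All 10 listed muscle stem cell genes, Pax7, Myf5 and Myod1 among them, had H3K4me3 in both states, and 0 had broad H3K27me3 in QSC and 1, Calcr, in ASC. H3K4me3 was called in QSC and ASC at 0 and 1 of 7 immune genes, 2 and 3 of 7 endothelial genes, and 2 and 3 of 7 genes of fibro-adipogenic cells. It was called at 4 and 3 of 6 genes of pericytes and smooth muscle and at 3 and 3 of 5 Schwann cell genes. The part of other cell types in the calls at Foxc1, Foxc2, Foxf1, Foxf2 and Foxd1, genes of mesenchyme and vessels, was not tested. The lists held 14354 and 15869 narrow H3K4me3 peaks and 44019 and 58454 narrow H3K27me3 peaks in QSC and ASC, and read depth per sample is unknown.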

How the data were processed

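H3K4me3 and H3K27me3 were measured by ChIP-seq in QSC and ASC, with libraries made by tagmentation of antibody-bound DNA, per the labels' protocols. Groups were taken from the sample titles. The submitters' processing notes name MACS2 2.1.1, bedtools 2.26.0, SAMtools 1.3, Picard 2.9.2, Bowtie2 2.3.2, Trimmomatic 0.36 and bcl2fastq 2.19, with build mm10 and no settings. The authors deposited for each peak a linear ratio, its fold over the local background. The deposited lists also give each peak's −log10 q-value. The labels name the same list for both replicates, so each list was treated as pooled. Inputs and signal tracks were not used here.

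Gene records, 21887 protein-coding genes without strand, came from RefSeq (GRCm38.p6, the assembly behind mm10), and all 35 symbols matched. Windows of 1 kb and 5 kb were set at both record ends. Narrow H3K4me3 peaks within 1 kb and broad H3K27me3 peaks within 3 kb of each other were merged into domains. These windows miss a start far inside a record, and where 2 genes share an end a peak counts for both. Promoters (250 bases before to 50 after a start) came from the RefSeq table. The planned comparison of proteins was not run.

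The genes, the related lists (other forkhead, Sox, T-box, Hedgehog signalling, partners in repression) and the marker lists (muscle stem, fibro-adipogenic, endothelial, immune, pericyte and smooth muscle, Schwann cells) were chosen with earlier results of these data known. All 35 genes were to be named, with full values for those called in 1 state, with both marks, with the longest domains, with no call or in a shared domain. Alternatives covered the window, the minimum overlap, the q and fold thresholds, the list used and lists matched in size. The counting code was tested on simulated peaks and run with Python 3.11.15, numpy 2.4.6 and pandas 2.3.3, with figures by matplotlib 3.10.9. With 1 list per group no test, error or interval could be given.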

Additional observations from a re-analysis of the deposited data

How the results depend on the processing

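Each of 11 results was recomputed under other settings, 86 values in all, of which 79 stayed within the limits set for a count (1.5 times) or a median and 7 did not. The broad H3K4me3 list called 32 genes in QSC against 19. The ASC list cut to the covered bases of the QSC list gave 12 genes in ASC against 23. A −log10 q of at least 5 left 2 genes with broad H3K27me3 in QSC against 24, and, set on both marks' lists, 0 with both marks at one end in QSC against 9 (1 when set on broad H3K27me3 alone), while 5 kb windows gave 14. The narrow list gave a median log2 ratio of H3K27me3 cover of 0.11 where the broad list gave 0. Over all settings, counts in QSC and ASC ran from 16 to 32 and 12 to 29 for H3K4me3, from 20 to 23 and 22 to 24 for narrow H3K27me3, and from 2 to 30 and 17 to 30 for broad H3K27me3. Without merging, 15 of 21 genes had the longer H3K27me3 domain in ASC against 10. Windows over the whole record plus 1 kb, calls without peaks near another protein-coding record end, the q threshold on broad H3K27me3 alone and unmerged H3K27me3 lengths were chosen after seeing the data. No paired analysis was possible because each list covers both replicates of its group, and for the same reason no replicate could be left out. The cause of these shifts was not tested.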

Other observations

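Noncoding neighbours stood at several of the H3K4me3 peaks described above. The peaks at Foxf1, Foxd2, Foxl2 and Foxe1 also lay within 1 kb of an end of Fendrr, Foxd2os, Foxl2os and Gm12446, so these lists do not assign the mark to one gene or the other. Among the genes with H3K4me3 alone, the Foxn3 and Foxp4 peaks lay within 1 kb of an end of Gm26839 and Gm46601, and the strongest peak inside the Foxn3 record lay at Gm51999.

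H3K4me3 calls in ASC only were made at 3.54% of all genes. Sox2 and Sox21, both factors of neural progenitors, were called in ASC only, 2 of 19 Sox genes, and Sox3 was called in QSC only. Tbx21, a factor of T helper cells, was the 1 of 17 T-box genes called in ASC only, and Tbx1 was called in QSC only. Both marks at one end were called at 3 Sox genes in QSC and 7 in ASC, and at 6 and 7 T-box genes.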
